A study of Mus musculus with 6 samples.

Results

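The Kruppel-like factor (KLF) genes Klf2, Klf3, Klf4, Klf5, Klf6, Klf7, Klf9, Klf10, Klf13 and Klf15 were examined in sorted mouse skin fibroblasts. Every probe set whose platform annotation names 1 of these genes and no other was taken, which gave 34 of 45037 probe sets and 10 of 18193 genes. Klf3 and Klf9 had 7 probe sets each, Klf6 had 5, Klf7 had 4, Klf5 and Klf13 had 3, Klf4 had 2, and Klf2, Klf10 and Klf15 had 1. Cancer-associated fibroblasts (CAF, 3 arrays) were PDGFRα+ cells sorted by flow cytometry from visibly dysplastic ears of male K14-HPV16 mice, whose strain label is HPV16. In this line the keratin 14 promoter drives genes of human papillomavirus type 16 in basal keratinocytes, so that the transgene is targeted to the epidermis and not to the cells that were sorted. Normal dermal fibroblasts (NDF, 3 arrays) were sorted in the same way from ears of male non-transgenic mice of strain FVB/n. All mice were 4 months old, and the protocol names 15 mice per genotype without saying whether each biological repetition was a separate pool. P-values therefore measure the spread between these samples, which may in part be technical.

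KLF proteins are transcription factors that bind GC-rich and CACCC-box DNA through C-terminal zinc fingers. One branch, with Klf2, Klf4, Klf5, Klf6 and Klf7, holds mostly activators. Another branch, with Klf3, represses through the CtBP corepressors, and a further branch, with Klf9, Klf10 and Klf13, recruits the Sin3 corepressor. Several members are known to respond quickly to serum, cytokines, glucocorticoids or shear stress, Klf4 and Klf5 act in the epidermis, and Klf2 is a regulator of endothelial cells and quiescent T cells.

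The upstream promoter sequences of Klf2 and Klf7 are shown because, with Klf10, these were the 3 members with the smallest p, and Klf10 had no window in the table used here. They are the 250 bases before the start site in RefSeq on GRCm38.p6, at chr8:72318812-72319061 (plus strand) and chr1:64121390-64121639 (minus strand). Capitals mark a MEF2 site, the element through which the kinase ERK5 is known to act on Klf2, and the CACCC box, the element that KLF proteins themselves bind, which reads GGGTG on the opposite strand.
Klf2: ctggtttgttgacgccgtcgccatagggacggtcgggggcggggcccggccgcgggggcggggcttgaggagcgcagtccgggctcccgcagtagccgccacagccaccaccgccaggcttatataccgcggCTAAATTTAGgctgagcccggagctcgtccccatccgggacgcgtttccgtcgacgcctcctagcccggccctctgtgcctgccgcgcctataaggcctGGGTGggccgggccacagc
Klf7: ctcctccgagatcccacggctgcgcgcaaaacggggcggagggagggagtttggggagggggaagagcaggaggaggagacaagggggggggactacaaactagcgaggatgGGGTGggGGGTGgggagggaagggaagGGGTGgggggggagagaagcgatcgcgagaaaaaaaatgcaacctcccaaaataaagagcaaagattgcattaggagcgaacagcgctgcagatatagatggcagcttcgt
The MEF2 match of Klf2 began 118 bases before the start, and its only CACCC match 19 bases before it. The Klf7 window had 3 CACCC matches, at 138, 131 and 111 bases, and no MEF2 match. A MEF2 match on either strand was present in 1 of the 8 members with a window in the table and in 2.92% of all 32851 windows of this length. The CACCC box was present in 6 of the 8 and in 52.0% of all windows, and the GC box (GGGCGG), which can overlap it, in 7 of the 8 and 32.7%. The E-box CACGTG was found for Klf4, Klf6 and Klf15 (6.02% of all windows). The AP-1 pattern TGANTCA, searched with any base at N, matched for Klf9 as TGAATCA (6.75% of all windows). The cyclic AMP element TGACGTCA (1.55% of all windows), the CArG box (1.47%) and the glucocorticoid response element (0.387%) had no match in the 8 windows. A match is a string of letters and not a measured site. Klf5 likewise had no window in that table.

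No KLF gene passed the test between fibroblasts from normal and dysplastic skin, and the member with the largest difference was Klf2, with higher values in CAF. Of the 10 members, 0 passed at a limma adjusted p under 0.05, whereas 0.517% of all genes did (94 of 18193, with 0.489% higher and 0.0275% lower in CAF). At an unadjusted p under 0.05, 1 member was higher in CAF, which was Klf2, and 0 were lower, against 4.93% and 4.02% of all genes (8.95% in either direction). The median difference over the members was 0.07 log2 units, beside -0.04 over all genes, and 6 of the 10 differences were above 0. On the level of probe sets 0 of 34 passed, against 0.162% of all probe sets (0.144% higher and 0.0178% lower), and 30 of the 34 differed by less than 0.5 log2 units. The groups did not overlap for 4 members (Klf2 and Klf7 higher, Klf3 and Klf10 lower), where 15.4% of all genes did not overlap (6.78% higher and 8.66% lower). Of the 34 probe sets 6 did not overlap, 3 in each direction, beside 12.8% of all probe sets (5.69% higher and 7.14% lower). The count of members was 2 after cyclic loess, with equal array medians and when a gene's probe sets were averaged, and 7 without NDF replicate 1. The share of all genes was not counted under these settings. With 1 array fewer the groups separate more readily, so the count of 7 cannot be read against the 4.

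**Figure D1:**
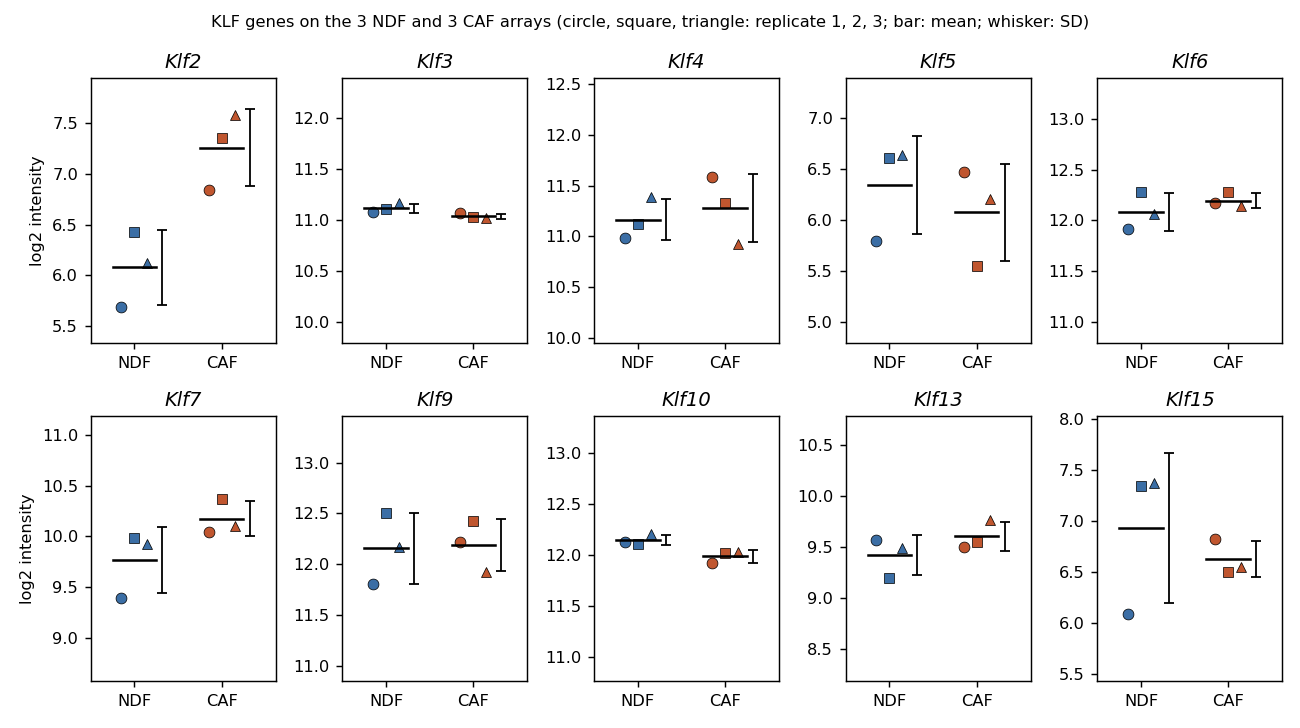
Log2 intensity of the probe set used for each KLF gene on every array, with NDF in blue and CAF in orange, the mean as a bar and the SD as a whisker (n = 3). Each panel spans the same number of log2 units. Klf2 lies between 5.69 and 6.43 in NDF and between 6.84 and 7.58 in CAF, while Klf3, Klf6 and Klf10 differ by at most 0.16 between the group means.

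Among the activators, Klf2 had the largest difference of the family. Its log2 intensity was 5.69, 6.43 and 6.12 on NDF replicates 1, 2 and 3, and 6.84, 7.35 and 7.58 on CAF replicates 1, 2 and 3. Every CAF array was above every NDF array, by at least 0.41 log2 units. The means were 6.08 ± 0.37 and 7.26 ± 0.38 (SD, n = 3). CAF exceeded NDF by 1.18 ± 0.28 (SE), which is 2.26-fold, and the 95% interval ran from 0.51 to 1.85. The limma p was 0.00446 before adjustment and 0.198 after it over all genes, and the p ranked 411 of 18193. Over the 17 alternatives run the difference lay between 0.82 and 1.39 and the adjusted p between 0.116 and 0.598, so that the direction was kept and no alternative gave a call. Klf2 has a single probe set on this array, so no second measurement of the transcript could be set beside it.

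Most endothelial, T cell, macrophage and neutrophil markers also had higher values in CAF. Of 12 endothelial markers 9 did not overlap between the groups, all higher in CAF, where 6.78% of all genes did so. Tek, Egfl7 and Cdh5 overlapped, with differences of -0.24, -0.24 and 0.05. Likewise 4 of 5 measured T cell markers, 9 of 11 macrophage and dendritic cell markers and 7 of 9 neutrophil markers were higher without overlap. Fewer were so on the mast cell list (3 of 8) and the pericyte and smooth muscle list (2 of 7). The summed levels of both these lists overlapped between the groups. The summed level of the endothelial list ranged from 10.14 to 10.65 in NDF and from 10.50 to 11.97 in CAF (log2), that of the T cell list from 7.51 to 7.94 and from 8.30 to 9.57, and that of the macrophage and dendritic cell list from 9.02 to 9.48 and from 11.16 to 12.60. The T cell sum placed the 6 arrays in the same order as Klf2, as did the sum of the immediate-early genes described further on. The brightest T cell gene on the NDF arrays, Cd28, read 6.81, 7.38 and 7.27 there. By itself it gave the same NDF order, and it was not higher in CAF (difference -0.12). The immediate-early sums of NDF replicates 2 and 3 were close, at 15.420 and 15.418. The sums of all other lists compared, the macrophage and endothelial lists among them, placed the arrays in other orders. The overlap of the endothelial sums came from the receptor gene Tek, the brightest on the list, which read 9.19, 9.48 and 10.13 in NDF and 10.51, 10.58 and 6.99 in CAF. Without Tek, an alternative chosen after seeing the data, the endothelial sum was 8.93 to 9.08 in NDF and 10.14 to 11.28 in CAF, with CAF replicate 2 the highest. The part of such cells in the Klf2 difference was not tested, and in a bulk sample fewer cells of a type and less RNA per cell cannot be told apart. The fibroblast markers summed to 16.01 to 16.14 in NDF and 15.80 to 16.09 in CAF, and Pdgfra, the receptor used for sorting, was at 12.30 to 12.60 and 12.45 to 12.66.

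**Figure D2:**
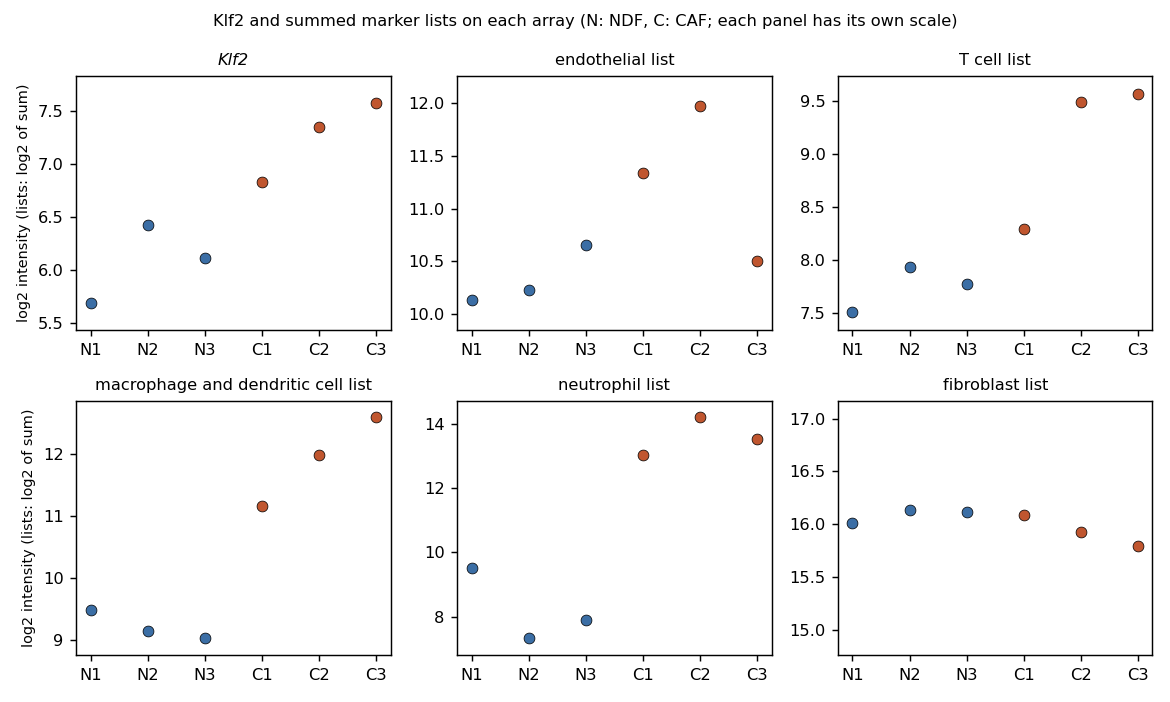
Klf2 (log2 intensity) and the log2 of the summed intensities of 5 marker lists on each array, NDF in blue and CAF in orange, each panel on its own scale. The T cell, macrophage and dendritic cell, and neutrophil sums are higher on all CAF arrays than on any NDF array. The plotted endothelial sum overlaps between the groups at CAF replicate 3 (10.50). Without Tek, a choice made after seeing the data and not plotted, it was 8.93 to 9.08 in NDF and 10.14 to 11.28 in CAF.

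Genes reported as targets of KLF2 and KLF4, mostly in endothelium, had higher CAF means without passing the test. All 7 measured of 8 had a difference above 0, where 44.5% of all genes did, with a median of 0.73. Only 1 of the 7 was higher in CAF without overlap between the groups, where 6.78% of all genes were. The list was not divided into genes reported to be raised and genes reported to be lowered by these factors. A shared sign is therefore no measure of KLF2 or KLF4 activity. By limma 0 passed. With p below 0.05 before adjustment 2 were higher and 0 lower, against 4.93% and 4.02% of all genes. The 2 were the endothelin gene Edn1 and the vascular receptor gene Kdr. Edn1 differed by 0.70, with overlap between the groups (adjusted p = 0.497). Kdr differed by 1.64 without overlap (adjusted p = 0.297) and also stands on the endothelial marker list. The kinases and MEF2 factors that act upstream of Klf2 and Klf4 had differences closer to 0. Of 6 genes 0 passed by limma and 0 had an unadjusted p under 0.05, and the differences ran from -0.42 for Map2k5 (adjusted p = 0.827) to 0.13. Mapk7, which encodes ERK5, differed by -0.17 (adjusted p = 0.904).

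Klf4, known as a regulator of the epidermal barrier and of fibroblast reprogramming, did not separate the groups on its brighter probe set. That probe set read 10.98, 11.13 and 11.39 on the NDF arrays and 11.58, 11.33 and 10.93 on the CAF arrays, so the groups overlapped fully. The difference was 0.11 ± 0.23 (SE), with a 95% interval of -0.44 to 0.67 (adjusted p = 0.953). Its sign depended on CAF replicate 1, without which the difference was -0.04. The other Klf4 probe set read 10.74, 11.28 and 11.28 in NDF and 11.37, 11.33 and 11.29 in CAF. All CAF arrays were above the NDF arrays there, by 0.01 at the closest, and the difference was 0.23 (adjusted p = 0.959 over all probe sets).

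Klf6, a factor of wound and injury responses, was among the brightest members by percentile, in the 99.0th percentile of all probe sets on average. Its values were 11.91, 12.28 and 12.06 in NDF and 12.17, 12.27 and 12.14 in CAF. The group means were 0.11 apart (95% interval -0.32 to 0.53, adjusted p = 0.941). The 5 Klf6 probe sets differed by -0.16 to 0.15, with 3 above 0 and 2 below. The groups overlapped on the probe set used, and on each side of 0 the probe sets stayed within 0.16.

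Klf7 was the other member with all CAF arrays above the NDF arrays. It read 9.39, 9.98 and 9.93 in NDF and 10.04, 10.37 and 10.10 in CAF, a gap of 0.06 between the groups. The difference of 0.41 ± 0.23 had a 95% interval of -0.13 to 0.94 (adjusted p = 0.703). It was 0.22 without NDF replicate 1, the lowest array. A second bright probe set gave 0.39, but the groups overlapped there. The remaining probe sets, also with overlap, diverged, at -0.60 ± 0.71 and 0.85 ± 0.50. On these the third CAF array stood apart in opposite directions, at 5.80 against 8.35 and 8.21 on one, and at 8.35 against 6.55 and 6.9998 on the other.

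Klf5, a factor of proliferating epithelia and of early adipocyte differentiation, was dimmer and varied within both groups. It read 5.79, 6.61 and 6.63 in NDF and 6.47, 5.55 and 6.20 in CAF. The difference was -0.27 ± 0.34, with a 95% interval of -1.07 to 0.53 (adjusted p = 0.906). Its size depended on single arrays, from -0.01 without CAF replicate 2 to -0.55 without NDF replicate 1. The other two probe sets differed by 0.17 and -0.13.

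The epidermis is a known site of Klf4 and Klf5 expression, and keratinocyte markers were higher on the CAF arrays. Of 13 measured keratinocyte markers 10 did not overlap between the groups, all higher in CAF, where 6.78% of all genes did so. The summed level of the list was 11.59 to 11.78 in NDF and 12.69 to 13.93 in CAF. The Klf4 and Klf5 values given above did not separate the groups on the probe sets used.

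Of the repressors, Klf3 showed very little spread on its brightest probe set, with an SD of 0.05 in NDF and 0.03 in CAF, while the SDs of its other probe sets reached 0.61 and 0.88. The brightest read 11.08, 11.11 and 11.17 in NDF and 11.07, 11.03 and 11.02 in CAF. All CAF arrays were below all NDF arrays, although the difference was only -0.08 ± 0.16 (95% interval -0.45 to 0.30, adjusted p = 0.953), and it was 0.00 after cyclic loess. A second Klf3 probe set, at 8.65, 9.27 and 8.84 in NDF and 8.40, 8.33 and 8.26 in CAF, was lower on every CAF array. Its difference was -0.59 ± 0.21 (unadjusted p = 0.0281, adjusted p = 0.605 over all probe sets). Over the 7 Klf3 probe sets the differences ran from -0.59 to 0.25, with 5 below 0 and 2 above.

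Klf10, an early response gene of TGF-β signalling, was high and slightly lower in CAF. Its single probe set read 12.13, 12.11 and 12.21 in NDF and 11.92, 12.02 and 12.03 in CAF. No array overlapped, but the difference was -0.16 ± 0.16 (95% interval -0.54 to 0.22, adjusted p = 0.876). Of 8 measured early genes of TGF-β signalling 0 passed by limma. With p below 0.05 before adjustment 2 were lower and 0 higher, against 4.02% and 4.93% of all genes. The 2 were Tgfbi at -0.91 (adjusted p = 0.416) and Ski at -0.64 (adjusted p = 0.446), and the list median was -0.03.

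Klf9, which glucocorticoids and the circadian clock are known to induce, did not separate the groups. It read 11.80, 12.50 and 12.17 in NDF and 12.22, 12.43 and 11.92 in CAF. The means were 0.03 apart (95% interval -0.56 to 0.62, adjusted p = 0.989). Its 7 probe sets ran from -0.22 to 0.34, with 2 above 0 and 5 below, and the sign of the gene's difference turned on the choice of array or probe set. Klf13, a factor of lymphocyte gene regulation, read 9.57, 9.20 and 9.49 in NDF and 9.50, 9.55 and 9.77 in CAF. CAF exceeded NDF by 0.18 (95% interval -0.27 to 0.63, adjusted p = 0.879), and its 3 probe sets were all above 0, at 0.01 to 0.18.

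Klf15, a glucocorticoid-induced factor of amino acid and lipid metabolism, had the widest spread among the normal samples on the probe sets used. Its NDF SD was 0.74, while a Klf5 probe set that was not used reached 0.84. Klf15 read 6.08, 7.35 and 7.37 in NDF and 6.83, 6.50 and 6.55 in CAF. The difference was -0.31 ± 0.37, with a 95% interval of -1.19 to 0.57 (adjusted p = 0.904). NDF replicate 1 lay below all CAF arrays and the other two NDF arrays lay above them. Without NDF replicate 1 the difference was -0.73 (unadjusted p = 0.0159, adjusted p = 0.514). It was -0.10 without NDF replicate 2 and -0.09 without NDF replicate 3, so its size depended on single arrays.

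The precision of these arrays sets what can be said of the flat members. For 7 of the 10 members (Klf3, Klf4, Klf6, Klf7, Klf9, Klf10 and Klf13) the 95% interval lay within 1 log2 unit of 0 on either side, between -0.56 and 0.94, so a doubling or halving on this scale was outside it for the probe set used. Of the 29 probe sets of these members 22 had such an interval, and 7 probe sets of Klf3, Klf7 and Klf9 had an interval reaching past 1 log2 unit on one side or both. For Klf5 and Klf15 the interval reached below -1, and the interval of Klf2 reached above 1. RMA compresses low values, which bears on Klf2, Klf5 and Klf15, whose means were in the 66.1th to 71.8th percentile of all probe sets, more than on the others, at the 90.8th percentile or above.

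**Figure D3:**
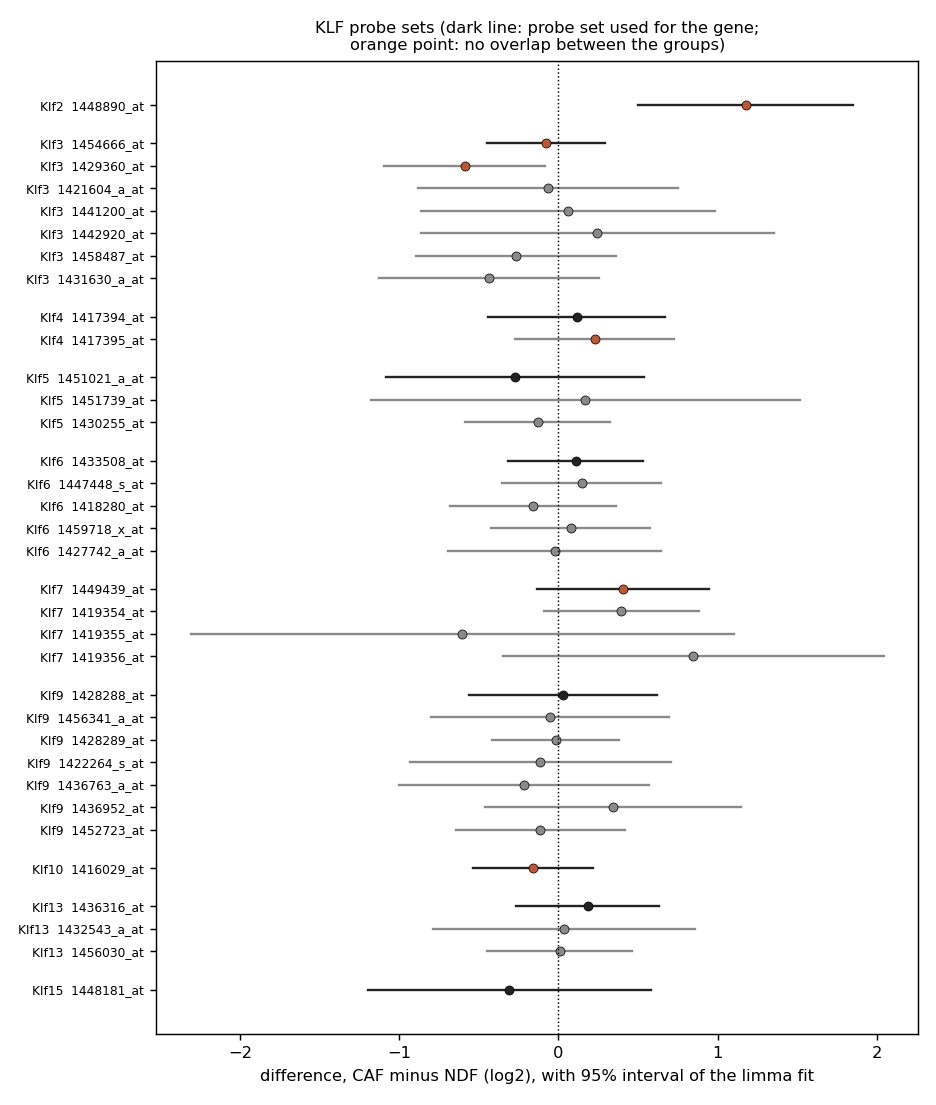
Difference between CAF and NDF (log2) with its 95% interval for each of the 34 KLF probe sets, fitted over all probe sets. Dark lines mark the probe set used for the gene, and orange points the 6 probe sets whose groups do not overlap. Most intervals cross 0, and the intervals of Klf2 and of the second Klf3 probe set do not.

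The NDF arrays differed more from each other for the KLF probe sets than for all probe sets, which were not matched in level. NDF replicate 1 was the lowest of the 3 NDF arrays for 28 of the 34 KLF probe sets, or 82.4%, whereas it was the lowest for 38.8% of all 45037 probe sets. The SD among NDF arrays was larger than that among CAF arrays for 61.8% of KLF probe sets and for 30.3% of all. The median SD of the KLF probe sets was 0.33 in NDF and 0.25 in CAF, beside 0.22 and 0.34 over all probe sets. Probe sets of a gene share transcripts and all share the same arrays, so these shares are descriptions. Most KLF probe sets were brighter than the median probe set, and RMA compresses low values. No set of similar level was compared, so whether the contrast reflects level or the KLF genes was not tested. The differences between the 3' and 5' control probe sets of Gapdh, a sign of RNA integrity and amplification, were 1.12, 1.50 and 0.98 on NDF replicates 1 to 3 and 1.25, 1.42 and 1.19 on the CAF arrays. NDF replicate 1 had the lowest median of the 6 arrays, 4.73 where the other NDF arrays had 4.84 each. Its mean correlation with the other arrays of its group, 0.978, was the lowest in NDF (0.979 and 0.982 for the others), and CAF replicate 3 had the lowest of all, at 0.924. The part of array quality in the low NDF replicate 1 values was not tested. Without NDF replicate 1 and CAF replicate 3 together the Klf2 difference was 0.82 (adjusted p = 0.288).

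The other genes of the family and its partners did not pass either. Of 16 further KLF and SP genes 13 were measured, 0 passed by limma and 0 had an unadjusted p under 0.05. The repressor gene Klf12 differed by -0.76 (adjusted p = 0.57), and Klf11, a relative of Klf10 that also binds Sin3, by -0.42 with all CAF arrays below all NDF arrays (adjusted p = 0.596). Of 14 cofactor and ubiquitin ligase genes 0 passed by limma and 0 had an unadjusted p under 0.05. Among them the acetyltransferase gene Kat2b differed by 0.35 (adjusted p = 0.752). The corepressor gene Sin3a differed by 0.83 (adjusted p = 0.765), which rested on CAF replicate 3, at 8.10 where the other 5 arrays were between 5.83 and 6.19.

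Immediate-early genes, with which several KLF genes are often grouped as rapid responders, were higher on the same arrays. Of 22 genes 6 rose and 0 fell by limma over all genes, against 0.489% and 0.0275% of all genes. With an unadjusted p below 0.05, 18 had higher values, against 4.93% of all genes, and the list median was 1.50. Those with the smallest p were Btg2, which restrains proliferation (2.39 higher, adjusted p = 0.00998), and Fosb, a subunit of AP-1 (1.60 higher, adjusted p = 0.0189). They were followed by Nr4a1, an orphan nuclear receptor (2.99 higher, adjusted p = 0.0252), and Ier3, a survival factor (1.76 higher, adjusted p = 0.0252). The count was 0 without NDF replicate 1, 2 or 3 and 1 without CAF replicate 2, and 12 with an intensity trend. Of the KLF members only Klf2 reached a difference above 1 log2 unit, and whether the KLF and immediate-early lists differ was not tested.

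**Figure D4:**
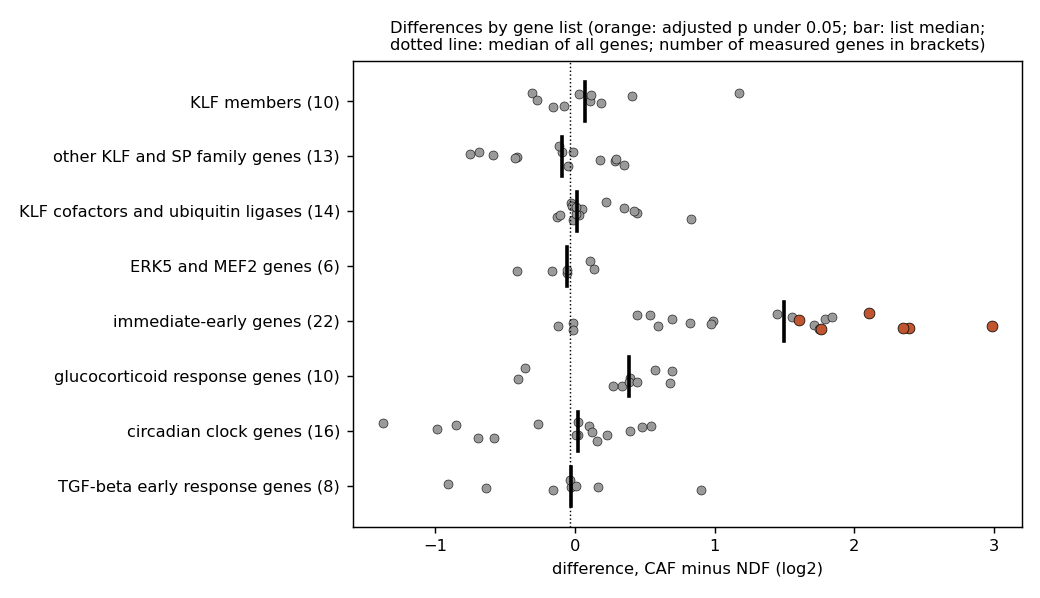
Difference between CAF and NDF (log2) for each gene of the KLF set and of 7 related lists, with the list median as a bar and the genes at an adjusted p under 0.05 in orange. The KLF members lie between -0.31 (Klf15) and 0.41 (Klf7) apart from Klf2 at 1.18, beside a median of all genes of -0.04 (dotted), and the immediate-early genes have a median of 1.50 with 6 genes past the threshold.

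Glucocorticoid, clock and adipogenic genes, pathways in which Klf9, Klf15 and Klf5 act, held no called gene. Of 10 glucocorticoid response genes 0 passed by limma, 3 were higher and 0 lower when p was below 0.05 before adjustment, and the median was 0.39. Of all genes 4.93% were higher and 4.02% lower at that level, the shares to set beside each list here. Of the 10 glucocorticoid differences 8 were above 0 and 2 below. Dusp1, which is also an immediate-early gene, differed by 0.69 (adjusted p = 0.199) and Errfi1, a feedback inhibitor of EGF receptor signalling, by 0.68 (adjusted p = 0.378). Of 16 clock genes 0 passed by limma, with 3 lower and 1 higher at p below 0.05 before adjustment and a median of 0.02. The core clock activator genes Arntl and Npas2 differed by -0.99 (adjusted p = 0.163) and -1.38 (adjusted p = 0.37). Of 9 measured adipogenic genes 0 passed by limma, with 3 higher and 0 lower when p was below 0.05 before adjustment and a median of 0.22. Cebpd, an early adipogenic factor, differed by 1.47 (adjusted p = 0.153) and the fatty acid carrier gene Fabp4 by 1.18 (adjusted p = 0.395).

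The genes whose pattern over the 6 arrays was most like that of Klf2 were Tmem243, Itga1 and Mms19. The root mean square difference from Klf2, after each gene was centred on its mean, was 0.16, 0.18 and 0.19 log2 units. Itga1, the integrin α1 chain gene, read 9.89, 10.15 and 10.39 in NDF and 10.99, 11.51 and 11.56 in CAF, a difference of 1.21 (adjusted p = 0.118). Tmem243 differed by 1.28 (adjusted p = 0.193) and Mms19 by 0.90 (adjusted p = 0.311). These genes were picked for their likeness to Klf2 on the same arrays, so differences near that of Klf2 follow from the choice.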

How the data were processed

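Expression was measured on Affymetrix mouse genome arrays. The deposited values are log2 intensities. GCOS and RMA are named in the submitters' processing notes, with versions not given in the sources used here. RMA corrects background, quantile normalises and summarises probes, so absolute amounts are lost, low values are compressed and probe sets of different genes are not on 1 scale. Values ran from 2.20 to 14.60, with array medians of 4.73 to 4.87. Precision is limited by the number of arrays. The table holds 45101 probe sets, 64 of them controls. Platform annotation gave 34945 of the others 1 gene, 932 several and 9160 none. Symbols were checked by gene identifier in RefSeq (34741 matched, 0 updated).

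The test was limma 3.58.1 in R 4.3.3 (a linear model with moderated variances, two-sided) on all 6 arrays, with group as the only term. Each gene was represented by its probe set with the highest mean. P-values were adjusted by Benjamini-Hochberg over all genes or all probe sets, with a threshold of 0.05. Promoter windows came from RefSeq on GRCm38.p6, and motifs were searched on both strands. RNA was amplified once before labelling, per the labels' protocols, which can add noise for scarce transcripts. Plots used Python 3.11.15 and matplotlib 3.10.9. The members and lists were chosen with earlier results of these data known. All members were named. Each related list gave its called genes, up to 4 by smallest p, or else the 2 with the smallest p. For the member with the smallest p the 3 most similar genes were named. Klf11 and Sin3a, which meet this rule, were singled out for their array values after these were seen. The alternatives were a replicate block, other normalisations, a filter on dim probe sets, other choices of probe set, an intensity trend, array quality weights, a threshold of 0.1 and leaving out each array. Leaving out NDF replicate 1 and CAF replicate 3 together was added after seeing the data, as was running the alternatives for the immediate-early list.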

Additional observations from a re-analysis of the deposited data

How the results depend on the processing

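No KLF gene or KLF probe set passed the limma threshold under any of the 17 alternatives that gave a value. Of 170 member differences 6 changed sign, and 7 of the 10 members kept their sign throughout. Klf3 was 0.0038 after cyclic loess, Klf9 was -0.0197 with the mean of its probe sets and -0.01 without NDF replicate 1 and CAF replicate 3, and leaving out 1 array gave -0.15 to 0.20 for Klf9 and -0.0359 to 0.29 for Klf4. The count of members without overlap was 2 after cyclic loess, with equal array medians or with the mean of probe sets, and 4 to 7 when 1 array was left out. The share of all genes without overlap was not counted under these settings, and with 1 array fewer the groups separate more readily. Over all genes 94 were called, and 20 with the replicate block, 155 with an intensity trend, 438 with array quality weights, 198 at an adjusted p under 0.1, and 5 to 156 with 1 array left out. For the immediate-early genes the count of 6 became 1 with the replicate block, 12 with the trend, 11 with the weights, 10 at 0.1, and 0 to 8 with 1 array left out. The cause of these changes was not tested. The repetition numbers did not pair the arrays, with correlations of deviations of -0.15, 0.11 and -0.01 for the 3 same-numbered pairs. With the block the Klf2 difference stayed at 1.18 (adjusted p = 0.22). The median of all genes moved by less than 0.1 under each scaling. The test of single probe sets was not repeated where the choice of probe set itself was changed, and overlap was not recounted where only the model or threshold changed or where 2 arrays were left out together. Dim members (Klf2, Klf5, Klf15) are limited by signal over background, which these values do not give.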

Other observations

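Some dim probe sets varied within a group. A Klf9 probe set stood at 4.43, 4.29 and 5.49 on CAF replicates 1, 2 and 3, and a Klf13 probe set at 5.88, 7.24 and 6.73 on NDF replicates 1, 2 and 3. Within CAF, replicate 3 was the lowest array for 17 of the 34 KLF probe sets and the highest for 13. Over all probe sets it was lowest for 33.6% and highest for 48.5%, so a place at either end was common there as well.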
